A study of Trametes gibbosa with 15 samples.

Results

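The loci described here are 253 newly assembled loci of the basidiomycete Trametes (Lenzites) gibbosa, strain CB-1, which causes white rot of wood. Each carries 2 or more assembled transcripts and overlaps no other newly assembled locus on either strand. They were taken from the authors' annotation of new loci by these rules, which use no expression value. Earlier results of these data were known when the loci were chosen. The annotation lists 847 new loci, and the count table lists 12885 genes, of which the other 12038 carry reference identifiers. Of the other new loci, 85 had several transcripts and overlapped a neighbour, 413 had 1 transcript and no overlap, and 96 had 1 transcript and overlapped. The reference annotation was not used here, so an overlap with a reference gene was not examined. Identifiers are given as newGene with a number, without the leading Trametes_gibbosa_. The files pair none of these loci with a gene product.

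The fungus was grown as mycelium in stationary liquid culture on Low-Nitrogen-Asparagine-Succinate medium with added glucose for 10 days at 25 °C. Control cultures were harvested then, without wood. The other cultures received 2 g of chips of a poplar hybrid (Populus simonii × P. nigra) and were harvested after 3, 5, 7 or 11 days with the wood. Every group had 15 bottles, used as 3 biological replicates per the labels, which gives 15 libraries of poly-A RNA, 12 of them with wood. Strain, medium, glucose and preculture were shared by all groups. The wood cultures were older than the controls at harvest, so wood and culture age cannot be told apart. In RNA from whole mycelium, fewer expressing cells and less RNA per cell cannot be told apart either.

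Transcript assembly from aligned reads reports a locus wherever reads join into spliced or continuous stretches outside the known annotation. It lists each distinct combination of introns at that locus as a separate transcript. Genes of basidiomycetes usually carry several short introns, and retention of an intron in part of the transcripts is the most common form of alternative splicing in fungi. A retained intron often brings a stop codon into the reading frame, so such transcripts need not encode the full protein.

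The depth of a library was 32472274 to 48361622 estimated counts in total. Library codes in the labels fall into 2 series. All controls and the libraries numbered 1 of days 3, 5 and 7 belong to the first, and the other 9 libraries, with all of day 11, to the second. The fits therefore carried a term for the series. At days 3, 5 and 7, only the library numbered 1 shares the series of the controls. The other libraries of these days are compared with the controls through the fitted series shift. No day 11 library shares a series with a control, so day 11 values rest wholly on the series shift seen at the earlier days. All 253 loci together took 0.0619% to 0.0786% of the counts of a library. A single locus, newGene_291, held 12.2% to 38.8% of that share.

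The loci were compact and spliced. Their span had a median of 1178 bases, with quartiles of 847 and 1636 and a range from 286 bases in newGene_343 to 5401 bases in newGene_583. The transcripts of newGene_583 each spanned 2990 bases or less. Together the 253 loci held 971 of the 2161 transcripts of all new loci. Of the 253 loci, 120 had 2 transcripts, 48 had 3, 72 had 4 to 9, and 13 had 10 or more. Those 13 loci held 205 transcripts. The transcript with the most exons had a median of 4 exons per locus, with 35 loci at 2 exons, 149 at 3 or 4, and 34 at 6 or more. The highest number was 11 exons, in newGene_185. No transcript of any new locus was without an intron, so the annotation holds only spliced models. The loci lay on 71 scaffolds, 130 on the plus and 123 on the minus strand. Scaffold 12 carried 16 of them and scaffold 2 carried 10, and 9 loci had another new locus within 200 bases.

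**Figure D1:**
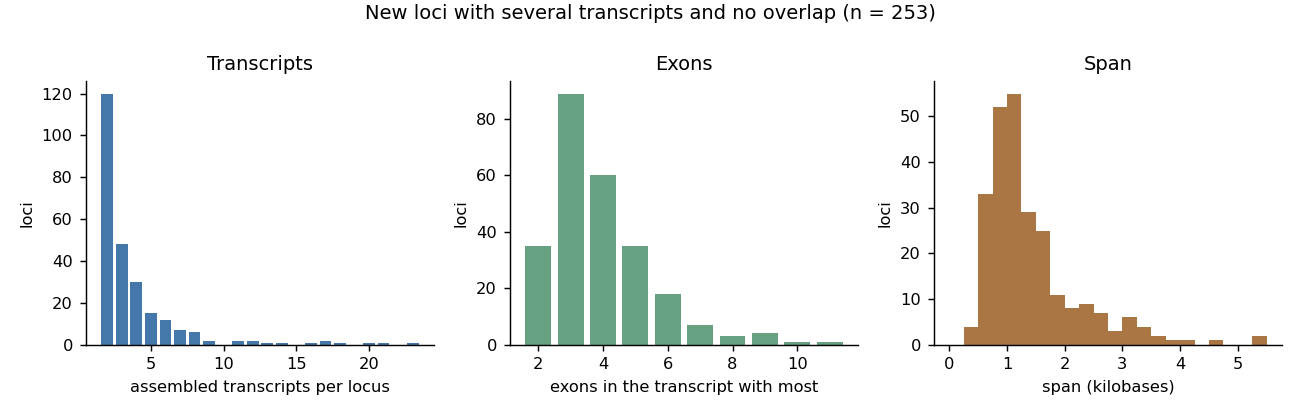
Number of assembled transcripts per locus, number of exons in the transcript with the most exons, and span in kilobases, each as a count of loci over the 253 loci. Most loci sit at 2 or 3 transcripts, 3 or 4 exons and a span near the median of 1178 bases, with a thin tail to 23 transcripts, 11 exons and 5401 bases.

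Introns were short. The 253 loci held 1101 distinct introns with a median of 63 bases, and 854 of them (77.6%) were 40 to 80 bases long. Only 5 introns were shorter than 40 bases and 45 were longer than 200 bases, with extremes of 23 and 1406 bases.

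The transcripts of a locus differed in their introns and in their ends. In 213 of 253 loci, at least 1 intron of a transcript lay wholly inside an exon of another transcript, the pattern of a retained intron. This held for 581 of the 1101 introns (52.8%). Introns that shared their 5′ splice site but not the 3′ site were found in 106 loci, and introns that shared the 3′ site but not the 5′ site in 61. An exon lying wholly inside an intron of another transcript, the pattern of a skipped exon, was found in 14 loci. All transcripts shared a 5′ end in 44 loci, a 3′ end in 39, and both ends in 22. These figures describe the assembled models, and the number of reads behind each transcript was not analysed here.

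The locus with the most transcripts was newGene_338 with 23, each spanning 3063 bases or less. It lies on the plus strand of scaffold 99 at 6216 to 11583. It was followed by newGene_12 with 21 transcripts on scaffold 100 and by newGene_731 with 20 and newGene_730 with 18, which lie near each other on scaffold 27. Next came newGene_1035 on scaffold 43, with 17 transcripts, a number that newGene_116 also reached. At the other end of complexity, newGene_291 had only 2 transcripts, on the plus strand of scaffold 12 at 137921 to 138728. Both transcripts removed an intron of 164 bases. The shorter one also removed an intron of 110 bases that the longer one kept, so the pair had 533 and 644 bases of exon. In newGene_644, on the minus strand of scaffold 1 at 1019121 to 1023766, all 6 transcripts removed the introns of 90 and 72 bases near the 5′ end. They differed in which of 5 further introns, of 57 to 86 bases, they removed, and in both ends. The shortest, with 3478 bases of exon, ended at base 4013 of the locus. The others ended at base 4499 or 4646.

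**Figure D2:**
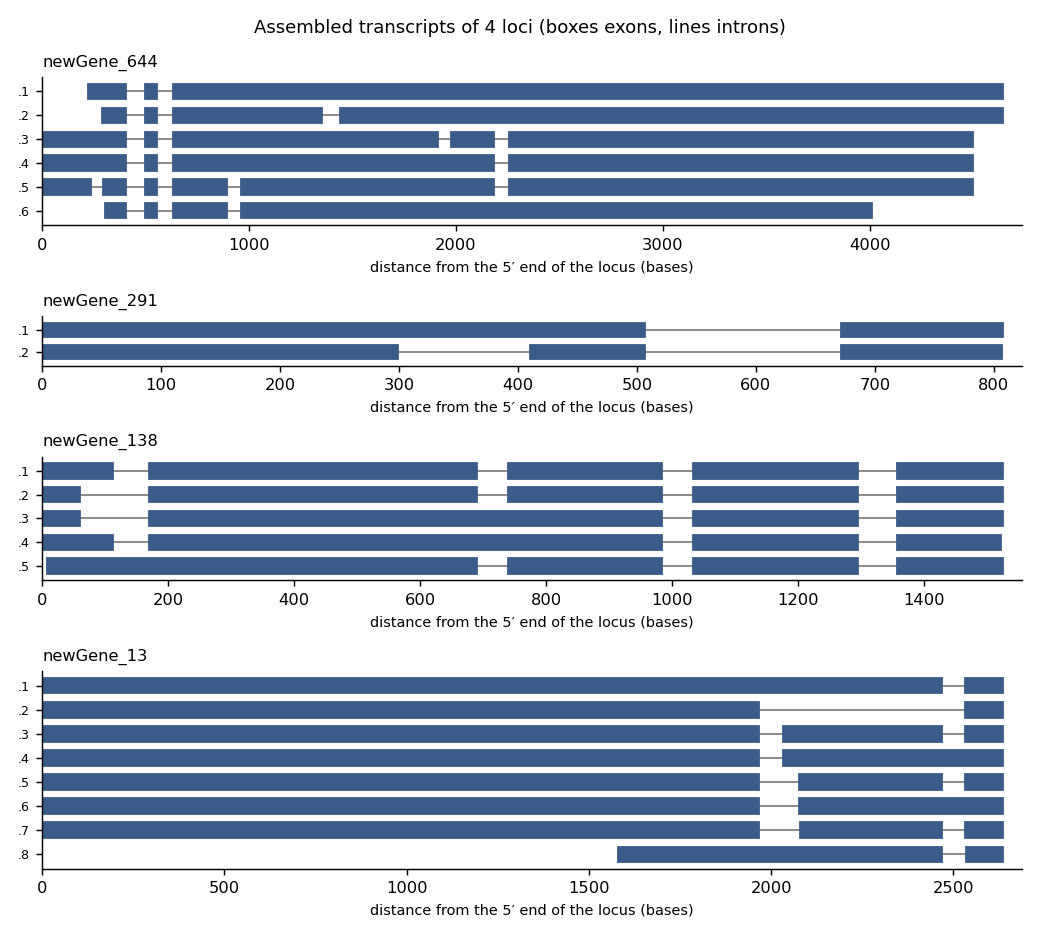
Exons (boxes) and introns (lines) of every assembled transcript of newGene_644, newGene_291, newGene_138 and newGene_13, with distance from the 5′ end of the locus in bases on the horizontal axis. In newGene_291 the transcripts differ by the intron of 110 bases, and in newGene_13 all 8 transcripts differ within the last part of the locus or at its start.

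The loci were weakly expressed. Abundance per length, as the mean of the deposited FPKM values over 15 libraries, had a median of 0.651, with quartiles of 0.397 and 1.45. It was under 1 in 157 loci (62.1%), from 1 to 10 in 88, and 10 or more in 8. Among reference genes the median was 10.8 and 18.9% were under 1. The new loci with a single transcript and no overlap had a median of 0.235, and those with several transcripts and an overlap had 0.949. Most of the 253 loci were nevertheless counted widely. In 164 of them every library held a count, in all 253 some wood library did, and in 13 all 3 controls stood at 0. The filter on low counts, filterByExpr, was passed by 242 of the 253 (95.7%), against 54.5% of the new loci with 1 transcript and no overlap and 89.5% of reference genes.

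Loci with more transcripts were more abundant and longer. The median mean FPKM was 0.458 in the 120 loci with 2 transcripts, 0.723 in the 78 with 3 or 4, and 1.48 in the 55 with 5 or more. Their median spans were 1018, 1195 and 1806 bases. Transcript number and abundance come from the same reads, so this is a description of the assembly.

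The most abundant locus by FPKM was newGene_291, with a mean of 276. The next were newGene_1119 with 23.6, newGene_138 with 18.3, newGene_1126 with 16.5 and newGene_405 with 14. Of these, newGene_291, newGene_1119 and newGene_138 were lower with wood and are described below.

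The comparison of wood days with the control asks which of these loci changed once the fungus grew with poplar wood. Counts of all 11386 genes that passed the filter were tested with edgeR's quasi-likelihood test under TMM scaling. Levels are printed as CPM of the TMM-scaled library. A locus was called when the p adjusted by Benjamini-Hochberg was under 0.05 and the change reached 2-fold. In the average over the 4 wood days, 5 of the 242 loci tested were higher and 10 were lower than in the control. The 15 called loci are 6.20% of the 242, while 11.0% of all genes tested were called. The share called higher was 4.19% over all genes, and the share called lower was 6.76%. The median log2 fold change of the loci was 0.05, beside 0.01 over all genes tested. At an unadjusted p under 0.05, 37 of the 242 loci passed, beside 40.5% of all genes.

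At day 3 with wood, 4 loci were higher and 7 lower, which is 4.55% of 242, beside 9.15% of all genes (3.35% higher and 5.81% lower). At day 5, 3 were higher and 8 lower, or 4.55%, beside 9.99% of all genes (3.71% and 6.29%). At day 7, 6 were higher and 11 lower, or 7.02%, beside 12.5% (4.75% and 7.73%). The share called was below that of all genes at each of these days. At day 11, 5 were higher and 8 lower, or 5.37%, beside 10.7% (4.51% and 6.14%). The loci also had low counts. Among loci with a mean under 1 CPM, 3 of 136 were called (2.21%), beside 4.45% of all genes of that abundance. From 1 to 10 CPM, 8 of 96 were called (8.33%, beside 11.3%). Of the 10 loci at 10 CPM or more, 4 were called, beside 11.9%. These bins were chosen after seeing the data, and the last rests on 10 loci. The number called in the wood-day average was 6 of 83 among overlapping new loci with several transcripts (7.23%) and 12 of 225 among loci with 1 transcript and no overlap (5.33%), where 10 were higher and 2 lower.

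**Figure D3:**
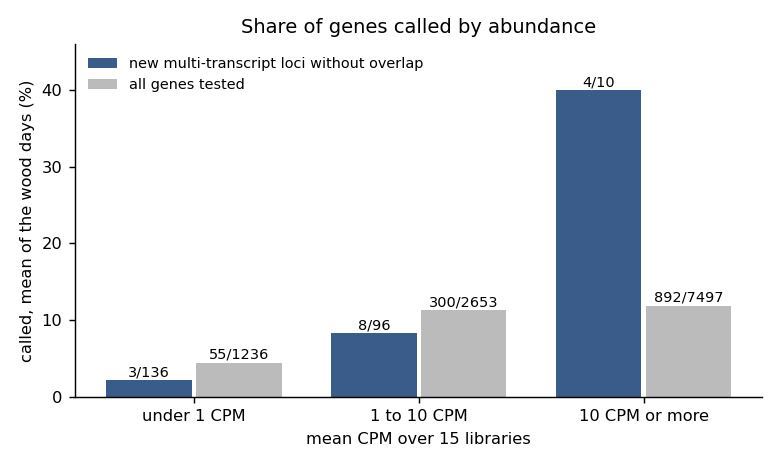
Percentage of genes called in the wood-day average against control, by mean CPM over 15 libraries, for the new multi-transcript loci without overlap (blue) and for all genes tested (grey), with called and tested numbers above each bar. The loci stand at 2.21% and 8.33% in the lower bins and at 4 of 10 in the highest.

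The number called in each direction moved with the scaling, as it did over all genes. TMM factors were 0.786 to 0.808 in the controls and 0.995 to 1.14 in the wood libraries. With library totals alone as the scaling, the median of all genes moved up by 0.45 (log2) in the wood-day average. The split of the loci then became 22 higher and 5 lower, beside 13.6% higher and 3.66% lower over all genes, with 10 of the 15 calls shared. No call of a named locus changed direction. All 5 higher loci remained called, and of the lower ones newGene_290, newGene_291, newGene_619, newGene_645 and newGene_896 did. The loci newGene_138, newGene_397, newGene_1066, newGene_1096 and newGene_1119 kept a log2 fold change of -0.58 to -1.0 under that scaling but lost the call. With library totals, 12 loci were higher and 3 lower at day 3 (all genes, 9.46% and 3.35%), and 13 and 3 at day 5 (12.3% and 3.3%). At day 7 they were 28 and 6 (16.1% and 4.08%), and at day 11 they were 26 and 5 (16.4% and 3.16%). On the log2(FPKM + 0.1) scale, limma tested the 159 loci with a mean FPKM of 0.5 or more. The wood-day average there gave 23 higher and 5 lower, beside 14.9% and 3.94% of all genes tested. All changes given below use TMM scaling.

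The most abundant locus that rose was newGene_644, with a span of 4646 bases and 6 transcripts. Its CPM was 12.8, 12 and 11 in the controls. It was 37.7, 15.9 and 17.7 at day 3, 39.3, 35.9 and 16.3 at day 5, 28.0, 20.1 and 24.3 at day 7, and 29.4, 23.1 and 22.0 at day 11. Every wood library lay above every control. The mean was 11.9 ± 0.866 CPM in the control (SD, n = 3) and 25.8 ± 8.28 with wood (SD, n = 12). The log2 fold change was 1.61 (SE 0.27, edgeR adjusted p = 0.0011) in the wood-day average, and 1.37, 1.80, 1.49 and 1.76 at days 3, 5, 7 and 11, called at each of them. The call at day 3 was lost without replicate 1 of day 3, where the log2 fold change was 0.96 (adjusted p = 0.132). Without the series term the log2 fold change was 1.1 in the wood-day average, and at day 3 it was 0.99 and not called (adjusted p = 0.0592).

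The locus newGene_132, a short locus of 608 bases with 4 transcripts on the minus strand of scaffold 60 at 139294 to 139901, had no count in any control. Its counts were 5, 13 and 8 at day 3, 8, 10 and 14 at day 5, 8, 15 and 9 at day 7, and 5, 9 and 10 at day 11. It was thus counted in 12 of 12 wood libraries at a low level, 0.214 ± 0.0611 CPM (SD, n = 12). Against the limit that 0 counts over the 3 controls allow, 3 counts, the level with wood was at least 5.80-fold higher. The adjusted p was 0.0023 (edgeR), and the calls in the wood-day average and at every day held in each fit that left out 1 library. With no count in any control, newGene_132 passed the filter on low counts through its wood libraries alone. Its adjusted p and the fits without 1 library are therefore no independent support for the rise.

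The other 3 higher loci were also low in abundance and their calls were less stable. In newGene_571, on the plus strand of scaffold 2 at 1192237 to 1193414, the mean rose from 0.260 ± 0.0354 CPM in the control (SD, n = 3) to 0.787 ± 0.212 with wood (SD, n = 12). Wood libraries ranged from 0.539 to 1.17 with a median of 0.736, all above the controls. On the log2 scale the fitted change was 1.51 (SE 0.41, edgeR adjusted p = 0.016). The call was lost without replicate 2 of the control or replicate 1 of day 7, with adjusted p up to 0.0658.

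In newGene_885, on the plus strand of scaffold 33 at 64352 to 64901, the counts were 2, 9 and 0 in the controls and 20 to 121 with wood. The mean was 0.138 ± 0.181 CPM in the control (SD, n = 3) and 1.06 ± 0.545 with wood (SD, n = 12), and the groups did not overlap. Fitted over all libraries, the log2 fold change was 2.73 (SE 0.87, edgeR adjusted p = 0.035). It moved to 2.16 without control replicate 3 and to 4.56 without control replicate 2. The call was lost in 5 of 15 fits that left out 1 library, those without control replicate 1 or 3 or without replicate 1 of day 3, 5 or 7 (adjusted p 0.0515 to 0.107).

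In newGene_212, on the minus strand of scaffold 7 at 887840 to 888917, the groups overlapped. The mean was 1.1 ± 0.305 CPM in the control (SD, n = 3) and 1.89 ± 0.759 with wood (SD, n = 12), with 8 of 12 wood libraries above all controls. Its log2 fold change was 1.32 (SE 0.39, edgeR adjusted p = 0.025), and 2.03 at day 11. Without the series term it was 0.74 (adjusted p = 0.15). The call was also lost without control replicate 1 or 2 or without replicate 1 of day 3 or 5 (adjusted p 0.0522 to 0.119).

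Among lower loci, 3 had a steady drop between control and every wood day. The locus newGene_138 lies on the plus strand of scaffold 62 at 131809 to 133334 and has 5 transcripts. Its CPM was 61.8, 48.6 and 59.0 in the controls and 18.9 to 26.1 with wood, with a median of 21.4. The mean fell from 56.5 ± 6.97 (SD, n = 3) to 22.1 ± 2.36 (SD, n = 12). The log2 fold change was -1.42 (SE 0.15, edgeR adjusted p = 4.9e-05), and it was -1.31, -1.49, -1.43 and -1.47 at days 3, 5, 7 and 11. The level was already down at day 3, and day 11 differed from day 3 by a log2 fold change of -0.16 (adjusted p = 0.58).

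The locus newGene_645, on the minus strand of scaffold 22 at 299655 to 301015, has 2 transcripts, of 1122 and 595 bases. Its CPM was 12.9, 10.5 and 11.7 in the controls and 1.14 to 4.48 with wood, with a median of 3.44. The mean fell from 11.7 ± 1.18 (SD, n = 3) to 3.39 ± 0.875 (SD, n = 12). On the log2 scale the fitted change was -2.01 (SE 0.37, edgeR adjusted p = 0.0017), and between -1.76 and -2.33 at single days, called at each. No fit that left out 1 library lost the call in the wood-day average. At day 5 the change of -2.33 became -1.49 without replicate 1 of day 5 (adjusted p = 0.012).

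The locus newGene_1119 spans 3139 bases on the plus strand of scaffold 5 at 282897 to 286035 and has 4 transcripts. Its CPM was 76.0, 70.7 and 103 in the controls. It was 31.4 to 38.7 at day 3, 34.2 to 35.6 at day 5, 34.6 to 43.9 at day 7 and 41.7 to 51.6 at day 11. All wood libraries lay below all controls. Its log2 fold change was -1.22 (SE 0.15, edgeR adjusted p = 0.00016) in the wood-day average. At days 3, 5 and 7 it was -1.32, -1.35 and -1.23. At day 11 it was -0.99 (adjusted p = 0.0044), just short of 2-fold.

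Smaller drops were measured in newGene_1066 and newGene_1096. In newGene_1066, on the minus strand of scaffold 46 at 95578 to 96656, the mean was 5.23 ± 0.352 CPM in the control (SD, n = 3) and 2.74 ± 0.453 with wood (SD, n = 12), with no overlap. The log2 fold change was -1.02 (SE 0.19, edgeR adjusted p = 0.0019), at the 2-fold limit, and it fell short of that limit at -0.97 without control replicate 2, at -0.96 without replicate 1 of day 3, at -0.997 without replicate 1 of day 7 and at -0.94 without the series term. The locus newGene_1096, with 16 transcripts on the minus strand of scaffold 47 at 231022 to 232739, went from 5.40 ± 1.18 CPM (SD, n = 3) to 2.90 ± 0.693 (SD, n = 12), with 11 of 12 wood libraries below the controls. Its log2 fold change was -1.26 (SE 0.27, edgeR adjusted p = 0.0045), and -0.90 without the series term, which is short of 2-fold.

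In newGene_619 and newGene_896 the mean CPM of the 4 days stood in descending order. Their fitted log2 fold changes descended over days 3, 5, 7 and 11 as well. The same order of fitted changes was found in newGene_291 (-1.02, -1.39, -1.65 and -1.84) and in newGene_1096 (-1.11, -1.18, -1.29 and -1.45). In newGene_1096 the SE at single days was 0.30 to 0.35, and day 11 against day 3 gave -0.34 (edgeR adjusted p = 0.50). No locus was called for day 11 against day 3, so the order alone does not show a steady decline. The locus newGene_619 spans 2368 bases on the plus strand of scaffold 21 at 136292 to 138659 and has 3 transcripts. Its counts were 80, 126 and 86 in the controls, 79, 60 and 129 at day 3, 0, 71 and 0 at day 5, 0, 1 and 0 at day 7, and 0, 0 and 0 at day 11. Scaled for depth, the day 3 libraries stood at 2.35, 1.37 and 2.74 CPM, all below the lowest control at 2.89. From day 7 only 1 count was left. At day 7, 1 count stood against 292 in the controls, a ratio of 494 after scaling with a 95% counting interval of 88.0 to 19586. At day 11 the level was at least 163-fold lower than the control, with 3 counts over the group as the floor. The adjusted p in the wood-day average was 0.026 (edgeR), and it rose to between 0.0525 and 0.0717 without control replicate 2, replicate 1 of day 5, or replicate 1 or 2 of day 7. Day 11 against day 3 had an adjusted p of 0.055.

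In newGene_896, on the plus strand of scaffold 34 at 247253 to 248374, the day means were 3.47 CPM in the control and 2.03, 1.76, 1.21 and 0.933 at days 3, 5, 7 and 11. All 12 wood libraries, at 0.493 to 2.92 CPM, lay below the controls, at 3.31 to 3.62. The fitted log2 fold change was -1.49 (SE 0.37, edgeR adjusted p = 0.011) in the wood-day average, -1.70 at day 7 and -2.16 at day 11. Days 3 and 5 were not called, and day 11 against day 3 gave -1.19 (adjusted p = 0.099). Without replicate 1 of day 3 the adjusted p of the mean was 0.0564.

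Without the series term 5 lower loci lost the call in the wood-day average, newGene_1066 and newGene_1096 by the 2-fold limit alone, newGene_290 by the adjusted p alone, and newGene_291 and newGene_397 by both. The most abundant of all, newGene_291, had a CPM of 266, 243 and 196 in the controls. It had 126, 304 and 234 at day 3, 87.1, 257 and 181 at day 5, 70.6, 173 and 197 at day 7, and 125, 170 and 181 at day 11. The groups overlapped, at 235 ± 35.5 CPM in the control (SD, n = 3) and 175 ± 68.1 with wood (SD, n = 12). Within the first series, where the controls lie, the wood libraries stood at 70.6 to 126, all below the controls, while those of the second series stood at 125 to 304. With the series term the log2 fold change was -1.48 (SE 0.19, edgeR adjusted p = 0.00019), and within the first series alone it was -1.31 (adjusted p = 0.012). Without the series term it was -0.44 (adjusted p = 0.33).

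The locus newGene_290, on the minus strand of scaffold 9 at 64604 to 65822, switched between none and full counts among libraries of a day. It has 5 transcripts. Its counts were 115, 77 and 106 in the controls, 0, 250 and 212 at day 3, 0, 0 and 0 at day 5, 0, 249 and 22 at day 7, and 39, 8 and 166 at day 11. Every wood library of the first series stood at 0. Of the 12 wood libraries, 8 lay below all controls and 3 above. The locus was called lower in the wood-day average (edgeR adjusted p = 0.0055) and at every day, but without the series term the adjusted p was 0.11. At day 5, with no count in 3 libraries, the level was at least 163-fold lower than the control against the floor of 3 counts over the group.

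In newGene_397, on the plus strand of scaffold 13 at 486042 to 487576, the mean was 1.86 ± 0.595 CPM in the control (SD, n = 3) and 1.19 ± 0.397 with wood (SD, n = 12). Wood and control overlapped. The fitted log2 fold change was -1.44 (SE 0.38, edgeR adjusted p = 0.015). It was -0.68 (adjusted p = 0.15) without the series term, and -1.25 (adjusted p = 0.19) within the first series. Without control replicate 3 or replicate 1 of day 7 the call was lost, with an adjusted p of 0.0515 to 0.0616.

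Within the first series alone, with 3 wood libraries against 3 controls, newGene_212, newGene_571, newGene_885 and newGene_619 were not called. Their adjusted p there was 0.0646, 0.0836, 0.151 and 0.439. The locus newGene_132 did not pass the filter on low counts in that series and was not tested there.

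**Figure D4:**
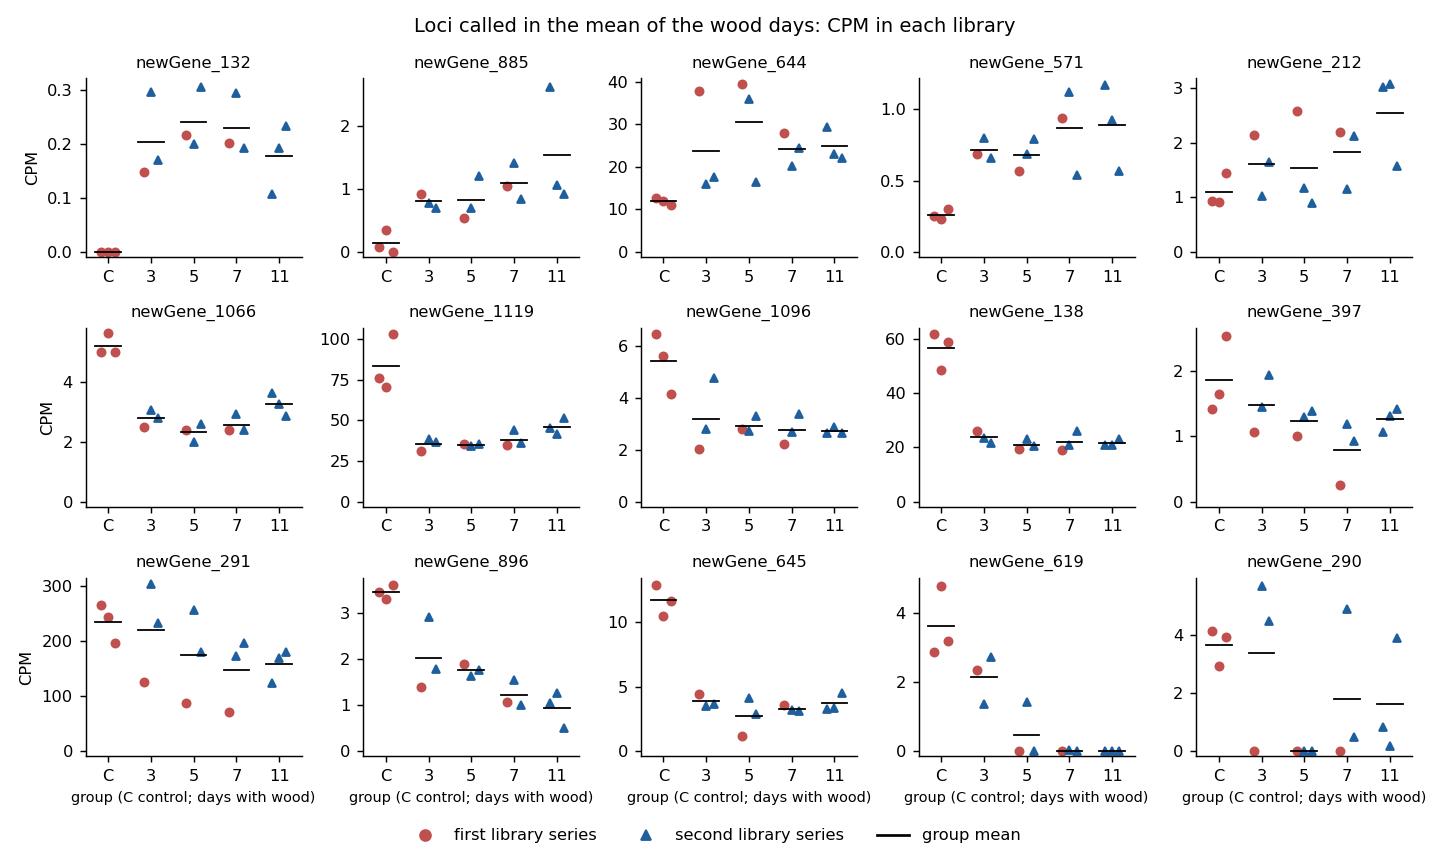
CPM of the 15 loci called in the wood-day average, in each library (points), by group (C, control; 3, 5, 7 and 11, days with wood), with the group mean as a line and the library series by colour and shape. The wood libraries of newGene_138, newGene_645 and newGene_1119 lie below all 3 controls at every day, whereas newGene_291 and newGene_290 differ between the first and the second series within a day.

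In 8 loci all 12 wood libraries lay above all 3 controls (3.31% of 242, beside 11.7% of all genes tested), of which 4 were called. In 7 loci all wood libraries lay below the controls (2.89%, beside 11.8%), of which 6 were called.

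Over the single days, 20 loci were called at least once, 7 higher and 13 lower, and none in both directions. Over all genes, 16.6% were called at least once. At all 4 days, newGene_132 and newGene_644 were higher, beside 1.81% of all genes. The loci newGene_138, newGene_290, newGene_291, newGene_645 and newGene_1096 were lower at all 4, beside 3.85%. Without the series term newGene_290 lost its call at days 3, 7 and 11, newGene_644 at day 3, and newGene_291 and newGene_1096 at every day. The log2 fold changes of newGene_1096 were then -0.76 to -0.99. At day 3 those of newGene_290 and newGene_291 were -0.11 (adjusted p = 0.97) and -0.089 (adjusted p = 0.91). The 4 days share the same controls, so these counts are not independent of each other. Leaving out 1 library ended some single-day calls. At day 3, newGene_1096 lost its call in 5 of 15 such fits and newGene_291 in 7. At days 3, 7 and 11, newGene_290 lost its call without replicate 1 of day 3 or of day 7 (adjusted p 0.0578 to 0.151), and at day 3 also without control replicate 1 (0.0506). The calls of newGene_571 at days 3 and 11, of newGene_885 at days 7 and 11, of newGene_212 at day 7 and of newGene_397 at day 11 were lost in 9 to 13 of 15 fits. Another 5 loci were called at a day but not in the wood-day average.

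Of those 5 loci, newGene_137 had the highest counts relative to its controls. It lies on the minus strand of scaffold 62 at 70368 to 71863 and has 2 transcripts. Its counts were 0 in all controls, 0, 34 and 0 at day 3, 28, 28 and 54 at day 5, 26, 39 and 31 at day 7, and 34, 39 and 17 at day 11. It was thus counted in every library from day 5 on and in 1 of 3 at day 3. Against the floor of 3 counts, the level was at least 22.4-fold higher at day 5, at least 18.9-fold at day 7 and at least 17.9-fold at day 11. The adjusted p was 0.049 at day 5 and at day 7 (edgeR), and 0.062 in the wood-day average. Each of these 2 calls was lost in 12 of 15 fits that left out 1 library. With no count in any control, newGene_137 also passed the filter through wood libraries alone, so its p-values are no independent support.

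At day 3 alone, newGene_510 was lower, with counts of 17, 11 and 8 in the controls and 4, 1 and 2 at day 3 (log2 fold change -2.58, edgeR adjusted p = 0.017). It lost the call without control replicate 1 (adjusted p = 0.0505). The change was -3.62 when replicate 1 of day 3 was left out. The locus newGene_770 was higher at day 3, at 0.534, 1.05 and 0.681 CPM beside a control mean of 0.16 (log2 fold change 2.02, edgeR adjusted p = 0.035), and lost the call in 8 of 15 such fits. At day 5 alone newGene_116, with 17 transcripts, was lower by a log2 fold change of -1.19 (edgeR adjusted p = 0.041). At day 7 alone newGene_485, with 11 transcripts, was lower by -1.70 (edgeR adjusted p = 0.025). Whether the calls of newGene_116 and newGene_485 hold in other fits was not examined. The last 2 were named after their values were seen, since the day's count outside the naming rule was small.

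Day 11 against day 3 asks whether the loci changed between the start and the end of the time with wood. None of the 242 loci was called by edgeR, beside 1.42% of all genes tested (0.729% higher and 0.694% lower). At an unadjusted p under 0.05, 20 loci passed (8.26%), beside 21.6% of all genes. DESeq2 called 4 loci, beside 3.17% of all genes with an adjusted p. The only locus with an adjusted p under 0.05 was newGene_291, with a log2 fold change of -0.82 (edgeR adjusted p = 0.038), short of 2-fold.

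Of the 6 loci with 17 or more transcripts, none was called in the wood-day average, beside 6.20% of the 242 loci and 11.0% of all genes tested. With only 6 loci, this cannot be told apart from those shares. The locus newGene_116 was called at day 5 alone. In the 5 named for transcript number, the log2 fold change in the wood-day average was -1.03 in newGene_12 (edgeR adjusted p = 0.057), -0.93 in newGene_1035 (0.053), -0.53 in newGene_730 (0.26), -0.37 in newGene_338 (0.36) and 0.17 in newGene_731 (0.60). Of the 10 loci with a mean of 10 CPM or more, newGene_1126 was the steadiest, with the highest library 1.64-fold above the lowest over all 15. It was followed by newGene_65 with 2.09-fold and newGene_96 with 2.24-fold.

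A few loci varied widely within a group. In newGene_1053 the counts were 925, 0 and 88 in the controls, 0, 0 and 198 at day 3, 146, 0 and 0 at day 5, 11, 0 and 3 at day 7, and 767, 1104 and 3 at day 11. The controls alone differed 335-fold on the CPM + 0.1 scale. In newGene_936 the counts were 1, 118 and 117 in the controls, 259, 0 and 0 at day 3, 420, 0 and 0 at day 5, 341, 310 and 0 at day 7, and 591, 863 and 0 at day 11. The spread was 187-fold within day 11. In newGene_158 it was 73.3-fold within the controls, which had 1, 0 and 194 counts. None of these 3 loci was called, and only newGene_1053 and newGene_936 ranged 100-fold or more within a group.

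Counts and FPKM together give the mean length of the transcripts that the authors' estimate assigned to a locus. A locus count divided by its FPKM, times a constant of the library taken from new loci with 1 transcript, gives a length in bases. Over all values with 100 or more counts, 728 of 728 lay between the shortest and the longest transcript of the locus within a tolerance of 2%. None lay within 2% of the summed length of its transcripts, which is the gene length listed in the count table. That largely follows from the first result, since the sum exceeds the longest transcript in every locus. A shift between libraries in the length implied by count and FPKM is a shift in the estimated mix of transcripts.

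This could be followed in the 18 loci with 100 or more counts in every library. The ratio of the highest to the lowest length over the 15 libraries was 1.02 to 1.45, with a median of 1.15, beside 1.07 for reference genes. Of the 18, 7 stayed under 1.1. A single locus, newGene_13, had every wood library apart from every control with a shift of 5% or more (5.56% of 18, beside 2.52% of all genes with such counts). It was chosen after its values were seen.

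The locus newGene_13 has 8 transcripts of 994 to 2577 bases on the minus strand of scaffold 100 at 8449 to 11085. The implied length was 2548, 2549 and 2565 bases in the controls, near that of the longest transcript. It was 2472, 2472 and 1996 at day 3, 1995, 2061 and 2497 at day 5, 1764, 1802 and 2452 at day 7, and 2119, 1926 and 1944 at day 11. All wood libraries were below the controls, and the median was 20.4% shorter. With wood the values were spread from near the control level to far below it within days 3, 5 and 7.

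In newGene_644 the controls stood at 4244 to 4275 bases, while 4 wood libraries stood at 3516 to 3656 and the other 8 at 4143 to 4261. The 4 shorter values came from replicate 1 of day 5, replicate 3 of day 7 and replicates 1 and 2 of day 11. The lengths of newGene_291 fell into 2 bands with nothing between them. Values of 569 to 572 bases were found in 9 libraries, the 3 controls and 6 with wood, and values of 626 to 633 in 6 libraries with wood. All 3 libraries of day 7 were in the longer band, and days 3, 5 and 11 had 1 library each in it. In newGene_138 the whole range was only 1325 to 1349 bases.

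**Figure D5:**
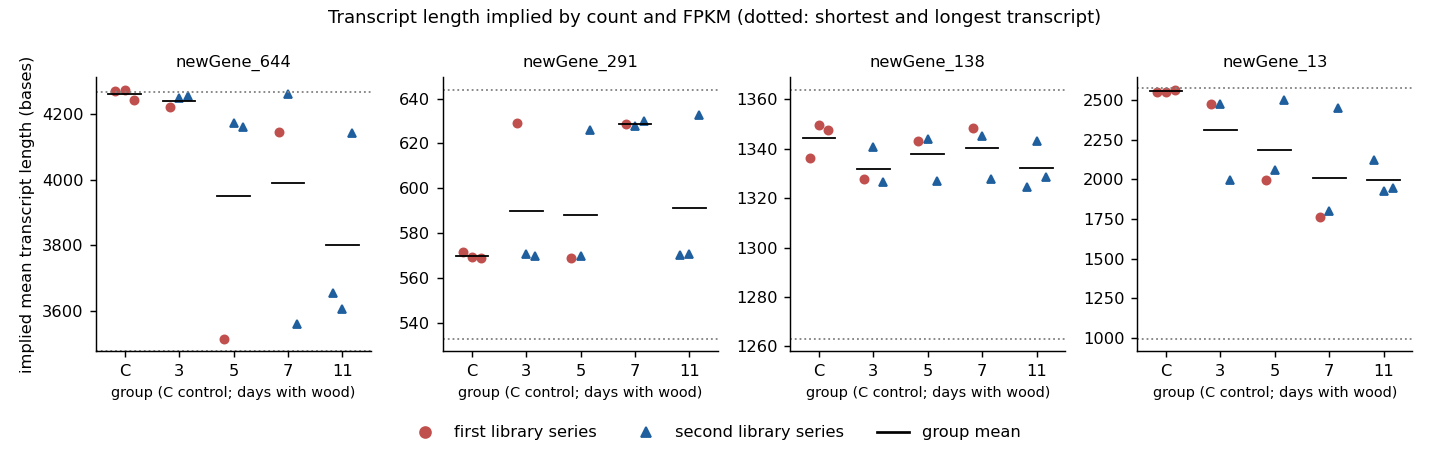
Mean transcript length in bases implied by count and FPKM in each library (points) for newGene_644, newGene_291, newGene_138 and newGene_13, by group (C, control; 3, 5, 7 and 11, days with wood), with group means as lines and the shortest and longest transcript as dotted lines. Values of newGene_13 are 2548 to 2565 bases in the controls and 1764 to 2497 with wood, and those of newGene_291 sit in bands at 569 to 572 and 626 to 633 bases.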

How the data were processed

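Paired-end reads of poly-A RNA from mycelium were obtained, per the labels' protocols. HISAT2, StringTie, DESeq 1.10.1 and DESeq2 are named in the submitters' processing notes, with no role stated. For the reference, no build is given in the sources used here. Estimated counts per gene (whole numbers), FPKM values and an annotation of new loci on scaffolds were deposited by the authors. The count table has a gene length column, per the file headers, which equals the summed transcript length for 847 of 847 new loci.

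A day 5 count column with no number matching a title was kept as a day 5 library without a number, in the second series. It holds the same library as the FPKM column titled replicate 3. Members and lists were chosen with earlier results of these data known. Counts were fitted over all genes in R 4.3.3 with edgeR 4.0.16 (filterByExpr, TMM, robust quasi-likelihood, terms for group and library series). The biological coefficient of variation was 38.8%, on 9 residual degrees of freedom. P-values were adjusted over 11386 genes. Fitted log2 fold changes include the series term and can differ from the ratio of printed means. Their SE is the absolute log2 fold change divided by the square root of F and does not come from the fit. Intervals and floors cover counting error only. Floors and ratios used scaled library sizes. Implied lengths used the constant of new loci with 1 transcript and 100 or more counts.

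Alternatives were DESeq2 1.42.0, other scalings, no filter, limma 3.58.1 on FPKM (mean of 0.5 or more, 159 of the 253 loci), no series term, a replicate block, single series and leaving out each library. Named loci are up to 15 calls per direction in the wood-day average, up to 3 per direction and day by fold change, the 5 highest by FPKM and by transcript number, the extremes of span and exons, and the 3 with the narrowest and the widest range. The fitting step was run on simulated counts with changes planted in the wood libraries. These counts held no series shift, so that run cannot check the series term.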

Additional observations from a re-analysis of the deposited data

Results flagged for a closer look

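In newGene_737, on the minus strand of scaffold 27 at 144891 to 146365, with 4 transcripts, the libraries of day 11 and day 7 lay on opposite sides of the controls. The CPM was 0.831, 0.800 and 1.34 in the controls, 0.737, 0.570 and 0.754 at day 7, and 1.56, 2.17 and 2.28 at day 11. The fitted log2 fold change against control was 1.32 at day 11 and -0.32 at day 7. The difference between the 2 days was not tested, and neither day was called.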

How the results depend on the processing

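The number of loci called in the wood-day average, 15, became 24 with DESeq2, 27 with library totals, 7 of 159 tested on log2(FPKM + 1), 28 on log2(FPKM + 0.1) and 27 without the series term, and 14 to 20 when 1 library was left out. The loci called were not all the same. Without the series term 9 of the 15 were kept, and without 1 library 10 to 15 were (10 without replicate 1 of day 7). At day 3 the 11 calls became 4 on log2(FPKM + 1) and 4 within the first series, and 6 to 14 without 1 library (6 without replicate 1 of day 7, 7 without replicate 1 of day 3). At day 5 the 11 calls became 22 with DESeq2, 6 on log2(FPKM + 1), 21 without the series term and 4 within the first series, and 9 to 14 without 1 library. At day 7 the 17 calls became 34 with library totals, 9 on log2(FPKM + 1), 30 on log2(FPKM + 0.1) and 5 within the first series, and 9 to 21 without 1 library (9 without replicate 1 of day 7). At day 11 the 13 calls became 20 with DESeq2, 31 with library totals, 27 on log2(FPKM + 0.1) and 20 without the series term, and 9 to 17 without 1 library. Day 11 against day 3 gave 4 with DESeq2, 1 on log2(FPKM + 0.1), and 0 or 1 without 1 library. The cause of these moves was not tested. Shares over all genes are given above for library totals and, in the wood-day average, for log2(FPKM + 0.1). For DESeq2 the share is given at day 11 against day 3 alone. Elsewhere no such share is given, so a move cannot be read as particular to these loci. When replicate numbers were added as a replicate block (the unnumbered library left out), the counts were 10 in the wood-day average, 4 at day 3, 10 at day 7, 2 at day 11 and 1 for day 11 against day 3. The block ended 31 of 65 calls of named loci, among them those of newGene_132 and newGene_644 at day 11 (adjusted p 0.0579 and 0.0596). Replicate numbers were not taken to pair the libraries: deviations from the group means correlated at -0.0628 to 0.449 over 26 same-numbered pairs, 4 of them over 0.1, and each of those 4 shared a library series. By these deviations 9 of 14 numbered libraries were closest to their own number. With the series removed as well, the correlations were -0.574 to 0.06, and 5 of 14 were closest to their own number. Removing the series makes the libraries numbered 1 of days 3, 5 and 7 offset each other, so neither check settles the pairing. The number of loci was 322 when only overlaps on the same strand counted, 244 with a distance of 200 bases, and 133 with 3 or more transcripts. Of 1527 refits of the calls of named loci, 1220 kept the call, 307 lost it and 0 reversed. Of the 65 calls, 24 were lost without replicate 1 of day 7 and 16 without replicate 1 of day 3. Leaving out any other library ended 3 to 13 of them.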
